A study of Mus musculus with 3 samples.

Results

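The genes of the synaptic vesicle and of transmitter release were examined in dentate gyrus tissue of wild-type mice. Members were taken by gene symbol: the synaptotagmin, synapsin, synaptogyrin, SV2, VAMP, syntaxin, syntaxin-binding, SNAP-25, complexin, Rab3, RIM, Munc13 and vesicular glutamate transporter families, together with 10 single genes from Syp to Synj1. This rule, which used no measured value, found 88 genes among 33101 gene names with a value. All 88 stood on a single row each, so no values had to be summed, and 6 of them were listed at 0.

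The libraries were made from poly(A) RNA of bilaterally dissected dentate gyri of adult male C57BL/6 mice, 8 to 10 weeks old, with no treatment or genetic change named in the labels. There was 1 wild-type group of 3 libraries, called biological replicates, and no second condition. The deposited table gives 1 level per gene for the group, in FPKM, a fragment number divided by transcript length and by the total of mapped fragments. No replicate error, sequencing depth or test could therefore be attached to any level, and every comparison below is a description of 1 set of values. The tissue is bulk, so fewer cells of a type and less RNA per cell cannot be told apart.

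A nerve terminal stores transmitter in synaptic vesicles, and a vesicle fuses with the plasma membrane when a VAMP protein on the vesicle zips together with a syntaxin and SNAP-25 on the target membrane. Synaptotagmins sense the calcium that triggers this step, complexins and Munc18 proteins control the SNARE complex, and RIM, Munc13, Bassoon and Piccolo organise the active zone where it happens. The vesicle membrane is then recovered by endocytosis. Granule cells of the dentate gyrus release glutamate from the large mossy fibre terminals in the hilus and in area CA3. The messenger RNAs of terminals that enter the dentate gyrus from elsewhere are made mainly in cell bodies outside the dissection.

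The release genes were abundant in this tissue. Of 88 members, 72 (81.8%) reached 1 FPKM, against 39.6% of all gene names and 56.4% of protein-coding names. The level of 10 FPKM was reached by 53 members (60.2%), against 21.1% of all names and 30.8% of protein-coding names. The level of 100 FPKM was reached by 17 members (19.3%), against 2.08% of all names and 2.64% of protein-coding names. At each of these levels the members' share was the higher one. The member median was 22.9 FPKM, against a median of 2.46 FPKM over 20107 protein-coding names. Members made up 0.266% of the names and carried 1.30% of the summed FPKM.

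**Figure D1:**
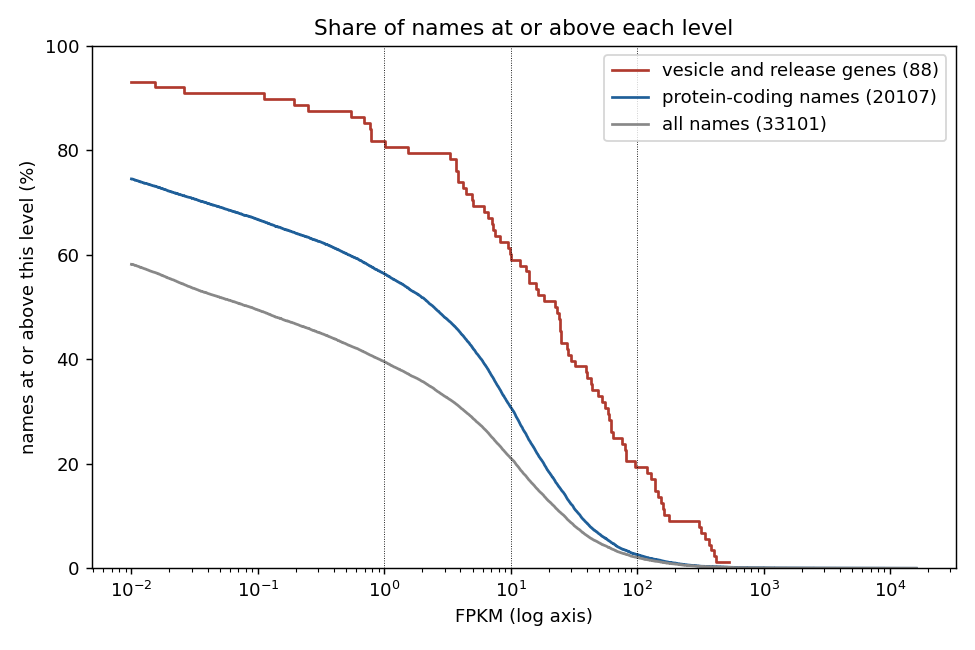
Share of gene names (vertical axis, percent) at or above each level in FPKM (horizontal log axis) for the 88 vesicle and release genes, 20107 protein-coding names and 33101 names in all, with dotted lines at 1, 10 and 100 FPKM. The curve of the release genes lies above the other curves at each dotted line, at 81.8%, 60.2% and 19.3%.

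Levels were concentrated in a few members. The 5 highest were Syp, Snap25, Cplx2, Nsf and Vamp2, which held 35.3% of the summed FPKM of all members. The 17 members at 100 FPKM or more held 73.9% of it. These 17 included at least 1 gene from 11 of the 14 role groups, and the SV2, syntaxin and active zone groups had none. A median of 10 FPKM or more was found in 12 of the 14 groups. The role group medians ran from 127 FPKM for the SNARE recycling genes and 120 FPKM for the synapsins down to 6.41 FPKM for the active zone genes and 0.686 FPKM for the vesicular glutamate transporters. In the last group, 1 of 3 members was high. This order depends on the summary: as a mean of log2(FPKM + 1), the SNARE recycling genes were again highest at 158 FPKM, endocytosis came second at 92.8 FPKM with the synapsins at 48.1 FPKM, and the active zone genes at 6.01 FPKM were below the vesicular glutamate transporters at 7.76 FPKM.

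**Figure D2:**
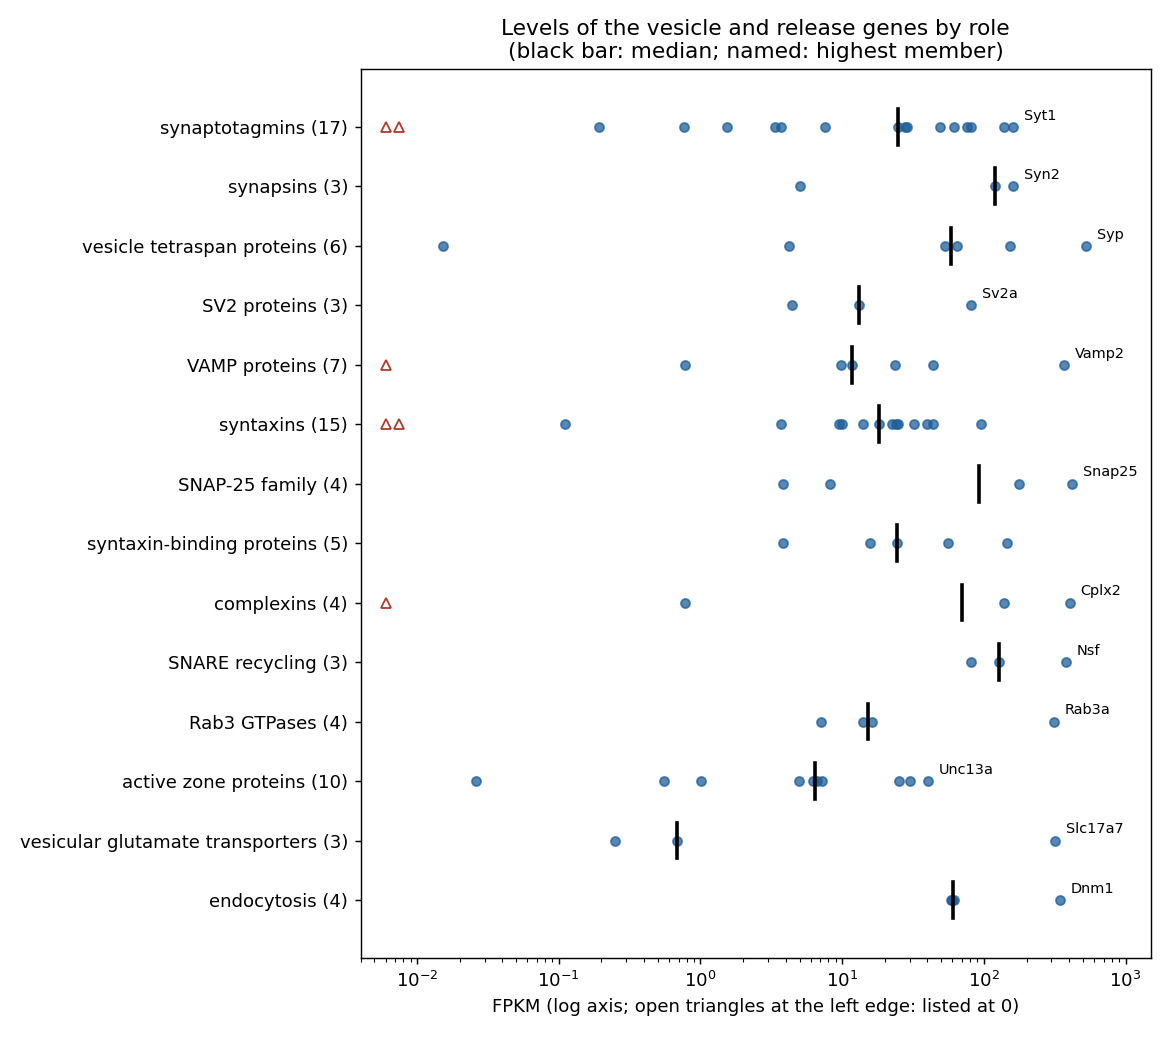
FPKM (horizontal log axis) of each of the 88 members, 1 dot per gene, in 14 rows by role with the number of genes in brackets; a black bar is the row's median and open triangles at the left edge are members listed at 0. The highest member is named in 12 rows; Slc17a7 stands far to the right of its row at 318 FPKM, against a median of 0.686 FPKM, whereas Syt1 at 160 FPKM lies close to Syt11 at 139 FPKM.

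The promoters of 4 members are shown: the highest member, 1 synapsin gene, and the highest and lowest vesicular glutamate transporter genes. The synapsin gene, Syn1, was the only member searched that held either of the first motifs named below, so it does not stand for the others. The windows are the 250 bases before the annotated start, read 5′ to 3′ on the gene's strand from the RefSeq promoter table (build GRCm38.p6). Of 88 members, 69 matched this table by symbol. Capitals mark the left part of the repressor element RE1 (TTCAGCACC), the cyclic AMP response element (TGACGTCA) and the GC box (GGGCGG), each searched on both strands. The windows lie at chrX:7638330-7638579 on the plus strand for Syp, at chrX:20920919-20921168 on the minus strand for Syn1, at chr7:45163671-45163920 on the plus strand for Slc17a7 and at chr10:89621250-89621499 on the minus strand for Slc17a8.
Syp: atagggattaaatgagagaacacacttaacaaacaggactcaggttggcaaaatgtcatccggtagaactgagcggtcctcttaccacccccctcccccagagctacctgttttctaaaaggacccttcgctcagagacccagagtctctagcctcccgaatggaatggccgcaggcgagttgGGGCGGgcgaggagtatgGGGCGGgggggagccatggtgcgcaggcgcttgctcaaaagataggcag
Syn1: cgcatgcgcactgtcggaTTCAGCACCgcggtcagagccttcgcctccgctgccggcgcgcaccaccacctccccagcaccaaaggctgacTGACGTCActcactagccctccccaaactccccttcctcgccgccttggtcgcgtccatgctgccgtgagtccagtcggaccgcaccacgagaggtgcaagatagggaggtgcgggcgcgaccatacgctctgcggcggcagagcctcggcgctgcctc
Slc17a7: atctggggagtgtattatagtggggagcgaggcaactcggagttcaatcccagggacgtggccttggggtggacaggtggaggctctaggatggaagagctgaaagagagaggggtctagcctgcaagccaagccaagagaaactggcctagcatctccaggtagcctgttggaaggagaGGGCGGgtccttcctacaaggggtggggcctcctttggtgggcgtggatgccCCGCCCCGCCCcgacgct
Slc17a8: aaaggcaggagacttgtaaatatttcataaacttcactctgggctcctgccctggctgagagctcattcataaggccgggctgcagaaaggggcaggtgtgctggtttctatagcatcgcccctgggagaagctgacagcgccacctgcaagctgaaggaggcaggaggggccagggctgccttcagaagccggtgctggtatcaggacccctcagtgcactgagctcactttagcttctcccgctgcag

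In Syn1, the RE1 part began 232 bases and the cyclic AMP element 159 bases before the start. Syn1 was the only 1 of the 69 members with either motif (1.45%). Over all 27025 genes of the promoter table, 0.348% held the RE1 part and 1.77% the cyclic AMP element. Slc17a7 held 3 GC boxes, with the pair nearest the start overlapping by their ends, and Syp held 2, whereas none of these motifs stood in the Slc17a8 window shown or in its second annotated window. A GC box was present in 48 of 69 members (69.6%), against 35.4% of all genes. A gene was counted when any of its annotated windows held the motif. The set of all genes was not filtered for protein-coding ones. The TATA box motif (TATAAA) was present in 4 of 69 members (5.80%), namely Rab3b, Stx2, Stx3 and Sv2b, against 14.3% of all genes. A match of letters is not a bound site, and no binding was measured here.

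Among genes of vesicle membrane proteins, Syp, which encodes the tetraspan protein synaptophysin, was the highest member of all at 528 FPKM. This level lay above 99.8% of protein-coding names. Its relative Synpr, which encodes synaptoporin, a protein enriched in mossy fibre terminals, was at 154 FPKM, so that Syp was 3.43 times Synpr. The synaptogyrin genes, members of the same tetraspan family, spanned a wide range. Syngr1 stood at 64.5 FPKM, Syngr3 at 53.0 FPKM, Syngr2, which is widely transcribed outside the nervous system, at 4.23 FPKM and Syngr4 at 0.0153 FPKM. The ratio of Syngr1 to Syngr3 was 1.22, but the transcript listed for Syngr1 is 819 nt long against 4180 nt for the longest coding form of the gene. Rescaled to the longest coding forms, the ratio was 0.238, in the opposite direction.

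The synapsins coat the vesicle and tether the reserve pool. Syn2 stood at 162 FPKM and Syn1 at 120 FPKM, a ratio of Syn1 to Syn2 of 0.742. Syn3 was far lower at 5.01 FPKM, and Syn2 exceeded it by 32.2-fold. The span of Syn3 contains Timp3, at 16.3 FPKM on the opposite strand, and that of Syn2 contains Timp4 at 26.8 FPKM. The library protocol names no step that marks the strand, and the part of these overlaps in the levels was not tested. SV2 proteins are vesicle glycoproteins with a transporter-like fold, and SV2A binds the antiepileptic drug levetiracetam. Sv2a, at 81.1 FPKM, was 6.18 times Sv2b at 13.1 FPKM, and Sv2b was 2.97 times Sv2c at 4.42 FPKM. Syp exceeded Sv2a by 6.51-fold and Syt1 by 3.29-fold.

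The vesicular glutamate transporters load glutamate into vesicles. Slc17a7 was at 318 FPKM and carried 99.7% of the summed level of the 3 genes. Slc17a8, found in a subset of interneurons and in other cells that co-release glutamate, was at 0.249 FPKM, so that Slc17a7 was 1277 times Slc17a8. Slc17a6, the main form of many subcortical neurons, was at 0.686 FPKM. With a pseudocount of 1 FPKM the ratio of Slc17a7 to Slc17a8 was 255. All 3 listed transcripts are coding forms of full length. The vesicular GABA transporter gene Slc32a1, outside the rule, was at 11.5 FPKM.

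The synaptotagmin family was the largest, with 17 genes, a median of 24.7 FPKM, 9 genes at 10 FPKM or more and 2 listed at 0. For comparison, 30.8% of protein-coding names and 21.1% of all names reached 10 FPKM. Syt1, the fast calcium sensor of forebrain synapses, was highest at 160 FPKM. The other fast sensors were near the bottom: Syt2, the main form of brain stem and of some interneurons, stood at 0.768 FPKM, and Syt9 at 1.53 FPKM. Syt1 was 209 times Syt2 and 105 times Syt9. The Syt9 ratio carries the limit that the listed transcript is a 482 nt form, 0.126 of the longest coding one.

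Syt7, a high-affinity sensor linked to asynchronous release and facilitation, was at 76.3 FPKM, and Syt1 was 2.10 times Syt7. Its listed transcript of 1605 nt is 0.242 of the longest coding form, and rescaled for this the ratio was 8.67. Of the synaptotagmins that bind calcium poorly or not at all, Syt11 was highest at 139 FPKM, followed by Syt13 at 80.6 FPKM. Syt4, a relative of Syt11 that is induced by activity, stood at 24.7 FPKM, a ratio of Syt4 to Syt11 of 0.178. Syt5 was at 61.6 FPKM, Syt17 at 49.2 FPKM, Syt3 at 28.6 FPKM and Syt16 at 27.8 FPKM. Those below 10 FPKM included Syt10 at 7.55 FPKM, Syt12 at 3.71 FPKM, Syt14 at 3.33 FPKM and Syt15 at 0.193 FPKM. Syt6 and Syt8 were listed at 0, each with a listed transcript under 0.5 of the longest coding form, that of Syt8 being noncoding.

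The genes of the core fusion complex differed in level between its subunits. Snap25 was at 418 FPKM, above 99.7% of protein-coding names, and Vamp2, the vesicle SNARE of most forebrain synapses, was at 367 FPKM. The ratio of Snap25 to Vamp2 was 1.14. Stx1a, a syntaxin of the presynaptic plasma membrane, was lower at 24.0 FPKM. These transcripts were coding forms at full length.

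The other VAMP genes lay well below Vamp2, which held 80.5% of the summed level of the 7 genes. Vamp4, of the trans-Golgi network and endosomes, was at 43.4 FPKM. Vamp1, the vesicle SNARE more typical of spinal cord and brain stem, was at 23.4 FPKM, so that Vamp2 was 15.7 times Vamp1. This ratio was 33.7 when rescaled to the longest coding forms. Vamp3, or cellubrevin, a widely transcribed form also used by glia, was at 11.8 FPKM, and Vamp2 was 31.1 times Vamp3. Vamp8, of late endosomes and of secretion outside neurons, was at 9.83 FPKM and its neighbour on chromosome 6, Vamp5, at 0.778 FPKM. Vamp7 was listed at 0. Its entry stands on the sequence named X_random, not on the assembled X chromosome. An entry named Vamp7-ps, annotated as a processed pseudogene, was at 9.72 FPKM. Whether reads of Vamp7 were assigned there was not tested.

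Of 15 syntaxin genes, 10 reached 10 FPKM, none reached 100 FPKM, and the median was 18.3 FPKM. Among protein-coding names, 30.8% reached 10 FPKM and 2.64% reached 100 FPKM. Among all names, the shares were 21.1% and 2.08%. Syntaxins of endosomes and the trans-Golgi network were among the higher ones. Stx12 was at 43.8 FPKM, Stx6 at 39.4 FPKM and Stx7 at 32.3 FPKM. These 3 exceeded Stx1a. Stx5a, of the Golgi apparatus, was at 22.3 FPKM, Stx18, of the endoplasmic reticulum, at 18.3 FPKM and the endosomal Stx8 at 14.0 FPKM. Stx18 overlaps Nsg1 by 573 bases at the end of its span, and Nsg1, on the opposite strand, was at 104 FPKM.

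The plasma membrane syntaxins used outside fast transmission were moderate. Stx4a was at 24.8 FPKM, Stx2 at 10.0 FPKM and Stx3 at 9.48 FPKM. The listed form of Stx4a is noncoding. The autophagosomal Stx17 was at 3.68 FPKM. Stx16, of the trans-Golgi network, was at 0.111 FPKM, with a listed transcript of 356 nt that is 0.0921 of the longest coding form. Stx11, a syntaxin of immune cells, and Stx19 were listed at 0.

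In the SNAP-25 family, Snap47, whose protein lacks the membrane anchor of SNAP-25, was second at 178 FPKM, and Snap25 was 2.35 times Snap47. Snap29, of endosomes and autophagosomes, was at 8.19 FPKM. Snap23, the widely transcribed form that also serves dendritic receptor traffic, was at 3.81 FPKM, so that Snap25 was 110 times Snap23. All 4 listed transcripts were coding and near full length. Snap29 shares 312 bases at its start with Pi4ka, at 68.3 FPKM on the opposite strand.

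Complexins, small proteins that bind the assembled SNARE complex, were high in 2 of their 4 genes. Cplx2 was at 404 FPKM and Cplx1 at 139 FPKM, a ratio of 2.90. Both together reached 543 FPKM. Cplx3, known from ribbon synapses of the retina, was at 0.784 FPKM, and Cplx4, of the same synapses, was listed at 0. Among syntaxin-binding proteins, Stxbp6, or amisyn, was at 55.6 FPKM and Stxbp5, or tomosyn, at 24.5 FPKM. Both proteins carry a SNARE motif of the VAMP kind and can occupy syntaxin. Stxbp2, the Munc18 form of epithelia and immune cells, was at 15.7 FPKM. Stxbp4 was lowest of the 5 at 3.81 FPKM.

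The machinery that takes spent SNARE complexes apart had a high level in every member. Nsf, the ATPase, was at 380 FPKM, 1.03 times Vamp2. Napa and Napb, the alpha and beta SNAP adaptors that recruit it, were at 127 FPKM and 81.6 FPKM. Beta SNAP is the form known as brain-specific, and the ratio of Napb to Napa was 0.641. The listed form of Napb is annotated as a target of nonsense-mediated decay.

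Of the 10 active zone genes, 3 were at 10 FPKM or more and none at 100 FPKM, with a median of 6.41 FPKM. The level of 10 FPKM was reached by 30.8% of protein-coding names and 21.1% of all names, so 3 of 10 lay near the protein-coding share. For 100 FPKM the shares were 2.64% and 2.08%. Unc13a, which encodes the priming factor Munc13 of most excitatory synapses, led at 40.0 FPKM. It was 8.09 times Unc13b at 4.95 FPKM and 39.6 times Unc13c, known from cerebellar granule cells, at 1.01 FPKM. Unc13d, of cytotoxic immune cells, was at 0.0261 FPKM. The listed form of Unc13b is a retained-intron transcript of 712 nt against 14754 nt for the longest coding one, and the form listed for Unc13a was not found in the annotation used.

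Rims1, a central scaffold of the active zone, was at 25.04 FPKM and 4.04 times Rims2 at 6.19 FPKM. The short RIM genes Rims4 and Rims3 were at 7.24 and 0.549 FPKM. The giant scaffold gene Bsn, or Bassoon, was at 29.9 FPKM and Pclo, or Piccolo, at 6.64 FPKM, a ratio of Pclo to Bsn of 0.222. The listed form of Bsn is the longest coding one, 15938 nt, whereas that of Pclo was not found in the annotation. Rab3 GTPases link vesicles to RIM proteins. Rab3a, required for long-term potentiation at mossy fibre synapses, was at 310 FPKM and held 89.2% of the summed level of the 4 genes. It was 19.0 times Rab3c at 16.3 FPKM and 22.1 times Rab3b at 14.1 FPKM, and Rab3d, known from secretory cells, was at 7.08 FPKM.

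The 4 endocytic genes were all above 50 FPKM, and 3 of them lay close together. Dnm1, the neuronal dynamin that cuts vesicles from the membrane, was highest at 343 FPKM. Snap91, which encodes the clathrin assembly protein AP180, was at 61.6 FPKM and Amph, or amphiphysin, at 59.5 FPKM. Synj1, a phosphatase that takes part in removing the clathrin coat, was at 58.5 FPKM. The listed form of Dnm1 is annotated as a target of nonsense-mediated decay, and Ciz1, at 28.5 FPKM, overlaps its start by 1003 bases on the opposite strand.

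**Figure D3:**
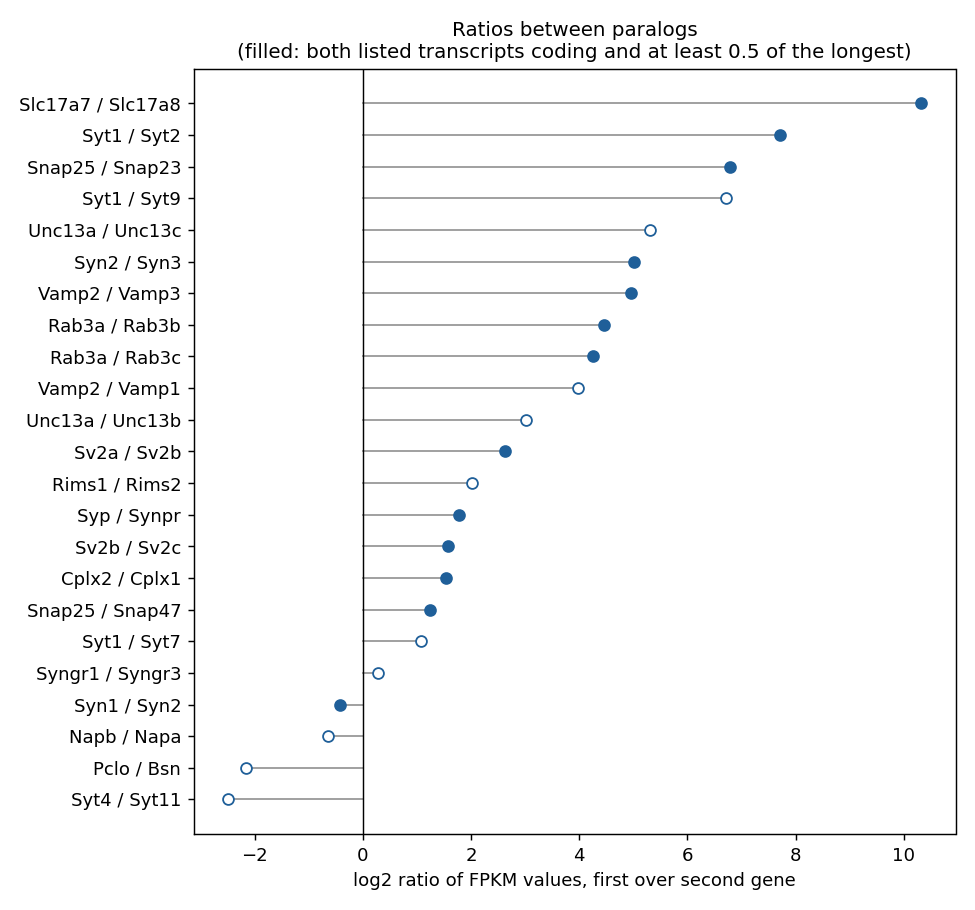
Log2 ratio of the FPKM values of 23 pairs of members, first over second gene as named on the vertical axis; filled points mark the 13 pairs whose listed transcripts are both coding and at least 0.5 of the longest form. Points right of 0 have the first gene higher, which holds for 19 pairs, from Syngr1 over Syngr3 at 0.28 to Slc17a7 over Slc17a8 at 10.32.

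Across 23 pairs of members, 20 differed at least 2-fold and 10 at least 10-fold. The 3 closer pairs were Syn1 and Syn2, Syngr1 and Syngr3, and Napb and Napa. With no replicate values, a ratio of this size cannot be set against the spread between animals. Pairs were listed with the gene known from forebrain synapses first in most cases, so the number of ratios above 1 depends on that order.

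The length of the listed transcript limits some levels, since FPKM is divided by length and the table does not say whether the value is that of the gene or of the transcript. The listed form was coding and at least 0.5 of the longest coding form in 62 members. It was a shorter coding form in 9 members and another class in 6, namely Syt15, Syt8, Stx4a, Napb, Unc13b and Dnm1. In 11 members it was not found in GENCODE M21, among them Syt11, Unc13a, Pclo, Rims2 and Stxbp5. Among the 62 members were Syp, Snap25, Cplx2, Nsf, Vamp2, Slc17a7 and Rab3a.

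**Figure D4:**
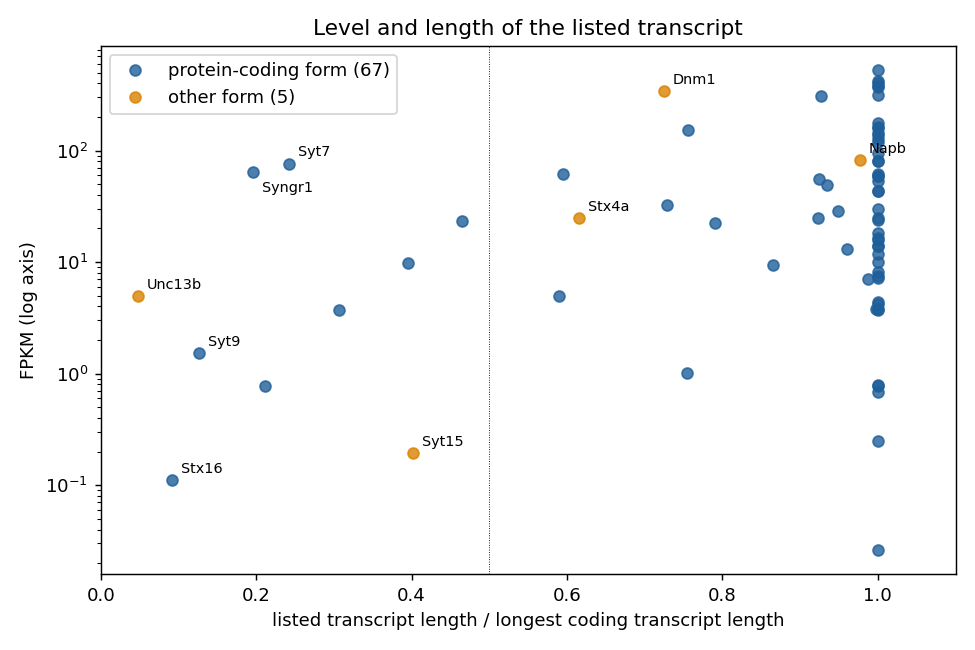
FPKM (vertical log axis) against the length of the listed transcript divided by that of the longest coding transcript of the same gene, 1 point per member with both lengths and a level above 0; the dotted line is at 0.5. Points left of the line include Stx16 at 0.111 FPKM, Unc13b at 4.95 FPKM and Syt7 at 76.3 FPKM, so that short listed forms occurred at low and high levels.

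Other genes of the release pathway, a list of 40 outside the rule, were examined beside the members. A value was present for 39 of them, with a median of 31.3 FPKM. The level of 1 FPKM was reached by 37, that of 10 FPKM by 32 and that of 100 FPKM by 5. Over protein-coding names, the shares at these levels were 56.4%, 30.8% and 2.64%. Over all names they were 39.6%, 21.1% and 2.08%. The list was picked by hand, so its counts are not those of a random set. High levels were found for Hspa8, the chaperone that strips clathrin coats, at 274 FPKM, Sncb, or beta-synuclein, at 222 FPKM and the clathrin light chain gene Clta at 155 FPKM. The vesicular monoamine transporter genes Slc18a2 and Slc18a1 were lowest at 0.0428 and 0.0314 FPKM. Monoamine neurons have their cell bodies outside the hippocampus.

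The dissected tissue held several cell types, which bears on members that are not confined to neurons, such as Snap23, Vamp3 and Stx4a. All 4 granule cell markers were present, between 43.3 FPKM for Dsp and 111 FPKM for C1ql2. The 6 astrocyte markers ranged from 26.3 to 267 FPKM, the 5 oligodendrocyte markers from 6.72 to 261 FPKM, the 5 microglial markers from 10.9 to 38.9 FPKM and the 5 interneuron markers from 10.6 to 109 FPKM. Of 4 endothelial markers, Pecam1 was listed at 0 and the others were at most 7.96 FPKM. Their part in the levels of the members was not tested.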

How the data were processed

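Levels are FPKM values made by the authors from reads of 3 poly(A) libraries with TopHat and Cufflinks, per the submitters' processing notes, which name the builds mm9 and NCBIM37; the sources used here do not give tool versions or strandedness. The deposited table holds 1 FPKM column for the group, and whether reads were pooled or values averaged is not given. Of 37681 rows, 36469 hold a value. Rows sharing a name were summed. A value of 0 may be a failed estimate and is reported as listed at 0. The depth is unknown, and no counting interval, detection limit or p-value is given.

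Members and lists were chosen with earlier results of these data known. All members were named or counted. In full were given the 3 highest and the lowest member of each role group, both genes of each pair, members listed at 0, and the 4 highest of the other release genes; more members were named after their values were seen, and some genes and pairs that the rule names are not reported here. Gene types, transcript classes and transcript lengths came from GENCODE M21 by Ensembl identifier, and promoters from the RefSeq table, both on GRCm38, whereas spans of the table are on mm9, written 1-based. Near copies were sought with blastn 2.17.0 at 95% identity over at least 200 nt. Summing and ranking were tested on simulated data. Scripts ran under Python 3.11.15 (numpy 2.4.6, pandas 2.3.3, matplotlib 3.10.9).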

Additional observations from a re-analysis of the deposited data

How the results depend on the processing

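A move of over 1.5 times was counted as a change, since no replicate spread exists. Rescaling the FPKM values to a common sum over all names, as TPM has, multiplied every level by 2.19 and left ratios as they were. The member median became 49.96 and the number of members at 100 or more became 30, or 34 when mitochondrial genes were left out of the sum. Rescaling raises the levels of all other names alike. The share of all names at 100 or more was not computed on the rescaled values. These counts therefore cannot be set against the shares given above. Taken as a mean of log2(FPKM + 0.1), the level of all members was 12.9 FPKM, and 9 of 14 role groups moved, as 9 did with a pseudocount of 1. Single group medians moved in 3 groups with only coding listed forms of at least 0.5 of the longest, and in the complexins, to 139 FPKM, without the member listed at 0. Keeping the highest row of shared names changed no value. Leaving out members or genes below 0.1 FPKM cannot change a count at 1 FPKM or more and says nothing about stability. The number of role groups at 10 FPKM or more was 12 as reported and fell to 8 as a mean of log2(FPKM + 0.1). That fall lies at the limit of 1.5 times and was not counted as a change. Under the other alternatives the number was 12 or 13. The number of pairs at least 2-fold apart stayed at 20 of 23 in all alternatives but 1. After rescaling to the longest coding form it was 16 of 18 pairs. Of 18 pair ratios with both lengths known, rescaling to the longest coding form moved 4 by over 1.5 times and reversed that of Syngr1 to Syngr3, to 0.238, by the construction of that alternative. A pseudocount of 1 FPKM moved 4 of 23, all with a low second gene. Leaving out each library was not run, because the table holds no values per library. No paired analysis was possible because there is 1 group and 1 column of values. The unknown depth limits all low levels.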

Other observations

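The 250 bases before the start held a median of 61.2% G and C and 15.2 CpG sites in 42 members at 10 FPKM or more, and 62.0% and 16.0 sites in 27 members below that level. Over all 27025 genes of the promoter table, not filtered for protein-coding ones, the medians were 52.4% and 6.0 sites. These windows describe the annotation only, and methylation was not analysed here.

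Level was set against gene size as a description. Across 88 members, Spearman's rho between FPKM and the listed span was 0.10, against 0.27 across 20107 protein-coding names. With the length of the listed transcript, rho was 0.09 across 77 members and 0.25 across 18406 protein-coding names. Genes are not independent replicates, and FPKM is itself divided by length.

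No pair of members matched each other in the same orientation at 95% identity over 200 nt, in a search with the longest coding transcript of 87 members. Reverse matches to another gene were found for 7 members, among them Syp with Gm14703 over 878 nt and Stx18 with Nsg1 over 574 nt. Syt11 matched the long noncoding RNA gene 1500004A13Rik in the same orientation, at 99.6% identity over 283 nt. Its part in the level of Syt11 was not tested. Overlaps were counted over whole listed spans, introns included, a measure unlike the transcript matches above. By this measure 16 members overlapped another entry at 0.1 FPKM or more. In 5 members an overlapping entry was higher than the member itself. The same shares over all genes were not computed, for the matches or for the overlaps.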
